A study of Homo sapiens with 25 samples.

Results

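BT20 is a human breast cancer cell line of basal type with a very high level of the epidermal growth factor receptor (EGFR), and the comparison described here asked which of its transcripts differed 30 min after the EGFR kinase inhibitor erlotinib was added. It rests on 7 of the 25 arrays of the series: 3 arrays of BT20 at 30 min and 4 arrays of BT20 at 0 min, chosen by their titles. Cells were plated in medium with serum, left to attach, and given erlotinib at 10 µM, and the 0 min arrays carry the same treatment label with a time of 0. The series gives no vehicle arrays at 30 min, so the drug and the 30 min of handling cannot be told apart. The other BT20 arrays, 3 at 6 h and 3 at 24 h, were used for the spread between replicates and for the later level of the early transcripts. The labels do not say whether replicates were separate cultures, so the p-values reflect only how much these arrays vary, which may be technical variation. BT20 is a single line, and its RNA was measured in bulk, so fewer cells with a transcript and less of it per cell cannot be told apart.

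EGFR passes its signal through the RAS, RAF, MEK and ERK kinases to transcription factors such as SRF and the ETS family, which switch on immediate early genes without new protein synthesis. Many of those mRNAs, among them EGR1, JUN, IER3 and the feedback inhibitors DUSP6 and SPRY2, carry AU-rich or other destabilising elements and are lost soon after their transcription stops. ZFP36 encodes tristetraprolin, a protein that binds AU-rich elements and recruits the deadenylation machinery, and its own mRNA is a target of this decay. Ribosomal protein and metabolic mRNAs, by contrast, are long-lived and change little within minutes.

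The values are log2 GCRMA values, 1 for each probe set, a group of short probes against the same transcript or transcripts. A value under 4 was taken as near background. Probe sets above 4 on at least 3 of the 7 arrays were tested, 24896 in all, of which 21026 carried exactly 1 gene symbol and stood for 11122 genes. A difference was called at an adjusted p under 0.05 from limma, with the Benjamini-Hochberg adjustment over every probe set tested. Changes are given in log2 units as 30 min minus 0 min, each followed by ± its standard error from limma; an SD is named as such.

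Some arrays stood apart. Over all 54613 probe sets, tested or not, replicates 1 to 3 of 0 min correlated with each other at r = 0.9961 to 0.9979. Replicate 4 of 0 min correlated with them at only 0.9827 to 0.9849, but with the 6 h arrays at 0.9943 to 0.9956. A pair of well known outputs of ERK did not follow that resemblance. DUSP6 stood at 9.24 and SPRY4 at 7.45 on replicate 4, near the other 0 min arrays, whereas their 6 h means were 3.23 and 2.13. Called probe sets are therefore given against all 4 arrays of 0 min and against replicates 1 to 3 alone. Replicate 3 of 0 min and replicate 1 of 30 min also deviated together from their group means, with a correlation of 0.71 between their deviations over the probe sets tested. Results without this pair are given where a called probe set lost its call, and for some other named probe sets.

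The arrays were alike in scale, with 44.7 to 45.2% of probe sets above 4 and a 75th percentile of 7.73 to 7.81 on the 7 arrays. The epithelial markers EPCAM, CDH1, KRT8, KRT18 and KRT19 were above 4 on all 7, as were KRT5, LAMB3 and EGFR, the last at 12.11 to 13.14. KRT14, another basal keratin, lay at 3.64 to 4.37. ESR1, the estrogen receptor gene, read 8.50 to 8.78 although BT20 is classed as receptor negative, and PGR stayed below 4. Among markers of other cells, 1 of 7 fibroblast genes (COL1A1), 1 of 5 measured blood cell genes (LCP1) and 1 of 4 endothelial genes (CDH5) were above 4 on all 7 arrays, while COL1A2, DCN, PTPRC, CD3E and VWF were below 4 on each. The summed level of the fibroblast list, on the log2 scale, was 8.69 to 9.44 at 0 min and 9.10 to 9.38 at 30 min, that of the blood cell list 11.71 to 12.46 and 12.20 to 12.35, and that of the endothelial list 10.87 to 11.87 and 10.70 to 10.80.

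A few sequences help to follow the transcripts described next. The first 3 are the 250 bases before the annotated start of EGR1, ZFP36 and MIR205HG in RefSeq on GRCh38.p14, shown because EGR1 is the textbook target of SRF and because probe sets of ZFP36 and MIR205HG were called. Capitals mark CArG boxes, the site that SRF binds. They were searched by the name's standard consensus on both strands, and the EGR1 window held 2. The last line is the mature microRNA that MIR205HG, its host transcript, contains, with the seed at bases 2 to 8 in capitals.
EGR1 promoter, chr5:138465229-138465478, + strand: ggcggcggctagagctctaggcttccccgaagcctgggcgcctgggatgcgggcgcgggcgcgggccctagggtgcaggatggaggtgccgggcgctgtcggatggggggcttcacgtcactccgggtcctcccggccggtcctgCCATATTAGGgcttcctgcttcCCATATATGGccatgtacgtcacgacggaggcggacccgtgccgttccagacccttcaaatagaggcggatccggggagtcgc
ZFP36 promoter, chr19:39406597-39406846, + strand: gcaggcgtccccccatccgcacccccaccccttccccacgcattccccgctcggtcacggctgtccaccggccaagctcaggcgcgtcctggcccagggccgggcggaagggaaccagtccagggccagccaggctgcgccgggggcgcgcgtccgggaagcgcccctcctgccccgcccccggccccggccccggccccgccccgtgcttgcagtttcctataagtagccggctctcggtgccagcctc
MIR205HG promoter, chr1:209428570-209428819, + strand: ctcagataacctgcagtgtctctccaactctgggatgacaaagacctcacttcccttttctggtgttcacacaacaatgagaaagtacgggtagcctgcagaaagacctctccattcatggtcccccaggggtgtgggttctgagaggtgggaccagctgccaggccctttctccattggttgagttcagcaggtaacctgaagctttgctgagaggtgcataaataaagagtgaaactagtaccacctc
hsa-miR-205-5p, chr1:209432166-209432187, + strand: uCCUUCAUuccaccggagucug

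Few probe sets passed the test, and most of those that did fell. Against all 4 arrays of 0 min, 3 of 24896 probe sets were called (0.0121%), 2 lower (0.00803%) and 1 higher (0.00402%), while 1041 (4.18%) had an unadjusted p under 0.05. Against replicates 1 to 3, 14 were called (0.0562%), 12 lower (0.0482%) and 2 higher (0.00803%), with 1417 (5.69%) at an unadjusted p under 0.05. They included all 3 of the first comparison. Of the 14, 6 were called in each of the 6 fits that left out 1 array, namely probe sets 235419_at, 1557285_at and 232290_at and those of EREG, SPRY4-IT1 and ZFP36. The other 8 lost the call without at least 1 array.

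**Figure D1:**
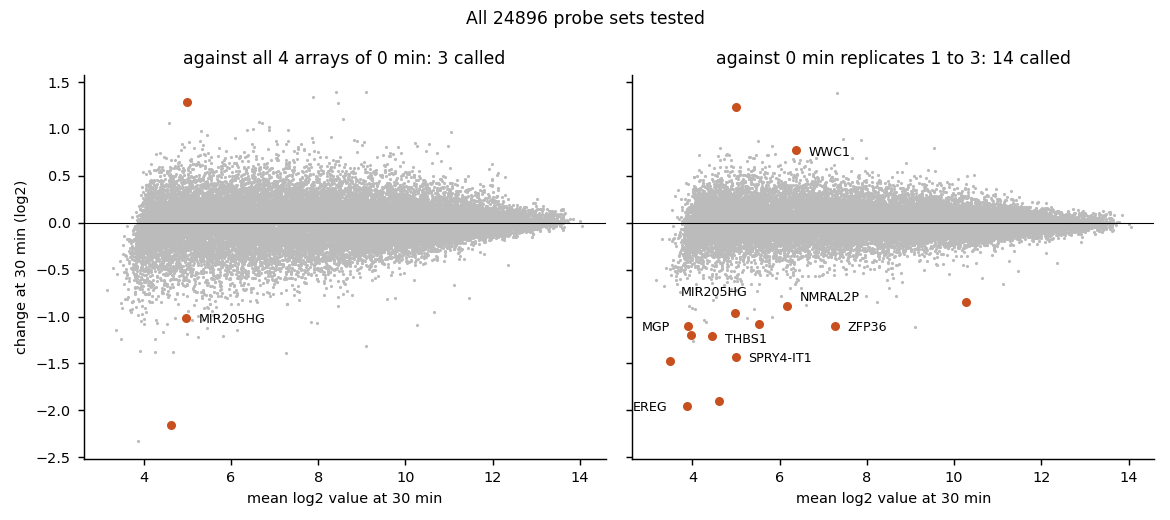
Change at 30 min (log2, y axis) against the mean log2 value at 30 min (x axis) for each probe set tested, against all 4 arrays of 0 min (left) and against replicates 1 to 3 (right). Orange points are the 3 and 14 called probe sets, labelled where they carry exactly 1 gene symbol, and 12 of the 14 on the right lie below 0.

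The largest called fall against 4 controls belonged to probe set 235419_at, which has no gene symbol in the annotation used. It read 6.49, 6.46, 6.59 and 7.55 on the 0 min arrays and 4.58, 4.46 and 4.81 at 30 min. All 3 later arrays were far below every control, and the change was -2.16 ± 0.22 against 4 controls (limma adjusted p = 0.0144) and -1.90 ± 0.11 against replicates 1 to 3 (limma adjusted p = 1.33e-05). A fall of 1.90 within 30 min equals a halving every 15.8 min, which restates the change and is not a measured half-life. The call against 4 controls was lost when any 1 of the 3 arrays of 30 min was left out (limma adjusted p up to 0.108), and without the pair of arrays that deviated together (0.201), with the change at -2.20.

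EREG encodes epiregulin, a ligand of EGFR that is itself induced by ERK. Its probe set 1569583_at read 5.69, 6.01, 5.76 and 7.34 at 0 min and 3.74, 4.16 and 3.72 at 30 min. The groups did not overlap, and 2 of the 3 later arrays were under the level taken as background, so the later level is in part an upper limit. The change was -1.95 ± 0.15 against replicates 1 to 3 (limma adjusted p = 2.07e-04) and -2.33 ± 0.32 against 4 controls, where it was not called (limma adjusted p = 0.0694) and replicate 4 was the highest control.

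ZFP36 fell by 1.10 ± 0.11 against replicates 1 to 3 (limma adjusted p = 0.00166). Its probe set 201531_at read 8.32, 8.45, 8.32 and 9.50 at 0 min and 7.52, 7.13 and 7.14 at 30 min. The 3 later arrays lay below every control and the spread among the first 3 controls was small (SD 0.0719, n = 3). Against 4 controls the change was -1.38 ± 0.24 and was not called (limma adjusted p = 0.261). Without the pair of arrays it was -1.25 against the remaining replicates 1 and 2 (limma adjusted p = 0.00104).

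MIR205HG, the noncoding host of miR-205, an epithelial microRNA, had its only tested probe set 226755_at at 6.22, 5.80, 5.75 and 6.16 at 0 min. At 30 min the values were 4.89, 4.91 and 5.10. No later array reached any control, and the change was -1.02 ± 0.12 against 4 controls and -0.96 ± 0.12 against replicates 1 to 3 (limma adjusted p = 0.0257 and 0.0114). The array measures the host transcript and not the mature microRNA. Against 4 controls the call was lost when replicate 1 or 2 of 0 min or any 1 array of 30 min was left out (limma adjusted p up to 0.237). There the call was also lost without the pair of arrays that deviated together (limma adjusted p = 0.201), with the change at -1.06. Against replicates 1 to 3 it was lost without replicate 2 of 30 min (0.0800).

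SPRY4-IT1 is a noncoding transcript from an intron of SPRY4, a feedback inhibitor of the ERK pathway. Its probe set 1566968_at read 6.18, 6.43, 6.65 and 5.45 at 0 min and 5.05, 4.83 and 5.09 at 30 min. Here replicate 4 was the lowest control and nearest to the later arrays. The change was -1.43 ± 0.14 against replicates 1 to 3 (limma adjusted p = 0.00166) and -1.19 ± 0.23 against all 4 (limma adjusted p = 0.346). Its other probe set, 1566967_at, changed by -0.92 and -0.77 in the same order and was not called (limma adjusted p = 0.0666 and 0.673). The SPRY4 probe set 221489_s_at read 7.15, 7.28, 7.13 and 7.45 at 0 min and 6.79, 6.89 and 7.51 at 30 min. Those groups overlapped, and the differences of -0.12 and -0.18 were within the error of the fit (± 0.20 and 0.19).

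The remaining calls against replicates 1 to 3 were more fragile or had no gene name. THBS1, which encodes the matrix protein thrombospondin 1, fell by 1.21 ± 0.18 on probe set 215775_at (limma adjusted p = 0.0406). Its values were 5.57, 5.96, 5.43 and 5.48 at 0 min and 4.82, 4.13 and 4.38 at 30 min. MGP, matrix Gla protein, fell by 1.10 ± 0.15 on probe set 238481_at (limma adjusted p = 0.0217), from 5.25, 4.73, 5.05 and 6.07 to 4.05, 3.77 and 3.90. Against 4 controls the changes were -1.16 and -1.36 without overlap, and neither was called (limma adjusted p = 0.109 and 0.327). Both probe sets are dim, and 2 of the 3 later MGP values were under 4. The THBS1 call was lost without replicate 1 or 2 of 0 min or replicate 2 or 3 of 30 min (limma adjusted p up to 0.169). That of MGP was lost without replicate 1 or 3 of 0 min or replicate 2 or 3 of 30 min (up to 0.135) and without the pair (0.0799).

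The pseudogene NMRAL2P, on probe set 241418_at, read 7.05, 7.26 and 6.84 on replicates 1 to 3 and 6.15, 6.06 and 6.28 at 30 min, a fall by 0.89 ± 0.11 (limma adjusted p = 0.0114). Replicate 4 read 5.27, below all later arrays, so the groups overlapped against 4 controls, where the change was -0.44 ± 0.36. That call was lost without replicate 1 of 0 min or replicate 2 of 30 min (limma adjusted p up to 0.0853). A probe set of WWC1, which encodes the scaffold protein KIBRA of the Hippo pathway, was the only called one with a symbol that rose. It rose by 0.77 ± 0.12 (241950_at, limma adjusted p = 0.0477). It read 5.71, 5.32 and 5.79 against 6.32, 6.43 and 6.39, while replicate 4 read 6.80, above all later arrays, so that the groups overlapped against 4 controls (0.47, limma adjusted p = 0.919). The WWC1 call held in 1 of the 6 fits that left out an array, the one without replicate 3 of 0 min (limma adjusted p = 0.0336), and p reached 0.186 in the others. The other tested WWC1 probe sets did not share this rise. The bright 213085_s_at had a mean of 12.02 in replicates 1 to 3 and again at 30 min. Probe sets 216074_x_at and 229180_at differed by 0.05 and 0.06 against replicates 1 to 3.

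Probe sets with no symbol or with several made up the rest. Probe set 242783_at rose, from 4.17, 3.46, 3.67 and 3.54 to 5.08, 4.83 and 5.08, by 1.28 ± 0.15 against 4 controls and 1.23 ± 0.15 against 3 (limma adjusted p = 0.0257 and 0.0114). Its control values were under 4 on 3 of 4 arrays, so it entered the test mainly through the arrays in which it was high. Against 4 controls, this call was lost when replicate 2 or 3 of 0 min or any 1 array of 30 min was left out (limma adjusted p up to 0.248), and against 3 without replicate 3 of either time (up to 0.0812). Without the pair of arrays that deviated together, the call against 4 controls was lost too (limma adjusted p = 0.316).
Probe set 1557285_at fell by 1.48 ± 0.15 to values that were all under 4, so it entered the test through the controls, and 232290_at by 1.08 ± 0.11, both against replicates 1 to 3 (limma adjusted p = 0.00166 and 0.00194). Probe sets 242868_at and 231697_s_at, the latter with several symbols, fell by 1.19 ± 0.17 and 0.84 ± 0.13 (limma adjusted p = 0.0325 and 0.0417), and each held in 1 of the 6 fits that left out an array (p up to 0.187 and 0.227). Those fits were the one without replicate 3 of 30 min and the one without replicate 1 of 30 min. Probe set 242868_at read 5.29, 5.10, 5.11 and 4.27 at 0 min and 3.82, 3.67 and 4.42 at 30 min. Its later level was thus in part under 4, and it entered the test mainly through the controls. Against 4 controls none of these last 4 was called. There 1557285_at and 231697_s_at had -1.23 and -1.09 without overlap (limma adjusted p = 0.340 and 0.496), while 232290_at and 242868_at overlapped the controls, with -0.77 and -0.97 (0.919 and 0.678). Without the pair of arrays that deviated together, and against the remaining replicates 1 and 2, the calls of 242783_at, 242868_at, 231697_s_at and WWC1 were lost (limma adjusted p = 0.116, 0.132, 0.0595 and 0.0502).

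**Figure D2:**
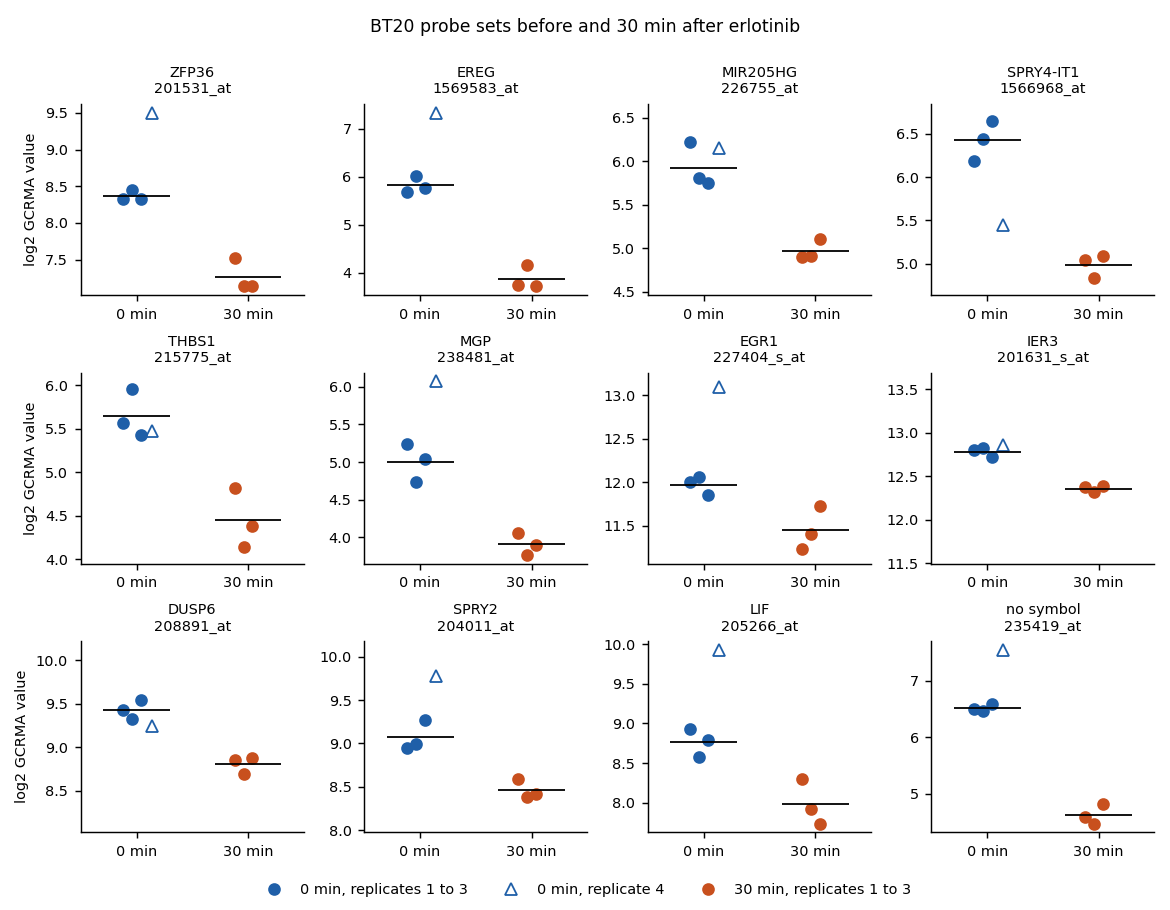
Log2 GCRMA value (y axis, its range set per panel) of 12 probe sets at 0 min (blue) and 30 min (orange); filled points are replicates 1 to 3, open triangles are replicate 4 of 0 min, and lines are the means of replicates 1 to 3. All later points lie below every control in each panel. The triangle stands above the other controls for ZFP36 (9.50), EREG (7.34), EGR1 (13.10) and LIF (9.93), among others. It is the lowest control for SPRY4-IT1 (5.45) and for DUSP6 (9.24).

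Counting probe sets whose groups did not overlap gives a wider view than the calls. All 3 arrays of 30 min lay below every one of the 4 controls for 506 probe sets (2.03%) and above every one for 403 (1.62%). The balance was less even among larger changes. Differences of at least 1 without overlap were found for 19 lower (0.0763%) and 3 higher probe sets (0.0121%), and of the 19, 11 carried exactly 1 symbol, 6 none and 2 several. At a size of at least 0.5 there were 130 lower (0.522%) and 103 higher (0.414%). Against replicates 1 to 3, 1063 were lower than every control (4.27%) and 921 higher (3.70%), with 102 (0.410%) and 68 (0.273%) of at least 0.5 and 15 (0.0603%) and 2 (0.00803%) of at least 1.

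Lists of genes picked for short-lived mRNAs held few of the 506 lower probe sets, but a larger share of their own probe sets was lower. The lists also follow pathways, and how long each member's mRNA lives was not measured here. In 12 such lists, with 161 genes and 333 probe sets tested, 33 probe sets were lower than every one of the 4 controls (9.91%, against 2.03% of all tested) and 4 were higher (1.20%, against 1.62%). Their median change was -0.09, beside -0.00275 over all probe sets tested. Against replicates 1 to 3 the counts were 54 lower (16.2%, against 4.27%) and 9 higher (2.70%, against 3.70%), with a median of -0.05. Among long-lived transcripts, 1 of 19 ribosomal protein and 1 of 47 metabolic probe sets were lower than every one of the 4 controls (5.26% and 2.13%) and none was higher, with medians of 0.02 and 0.01. The counts against replicates 1 to 3 were 2 of 19 (10.5%) and 2 of 47 (4.26%) lower and none higher. Of the 333 probe sets of the 12 lists, 1 was called against 4 controls and 4 against replicates 1 to 3, all lower. The lists were chosen with earlier results of these arrays known, so these counts describe them and are not tests.

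**Figure D3:**
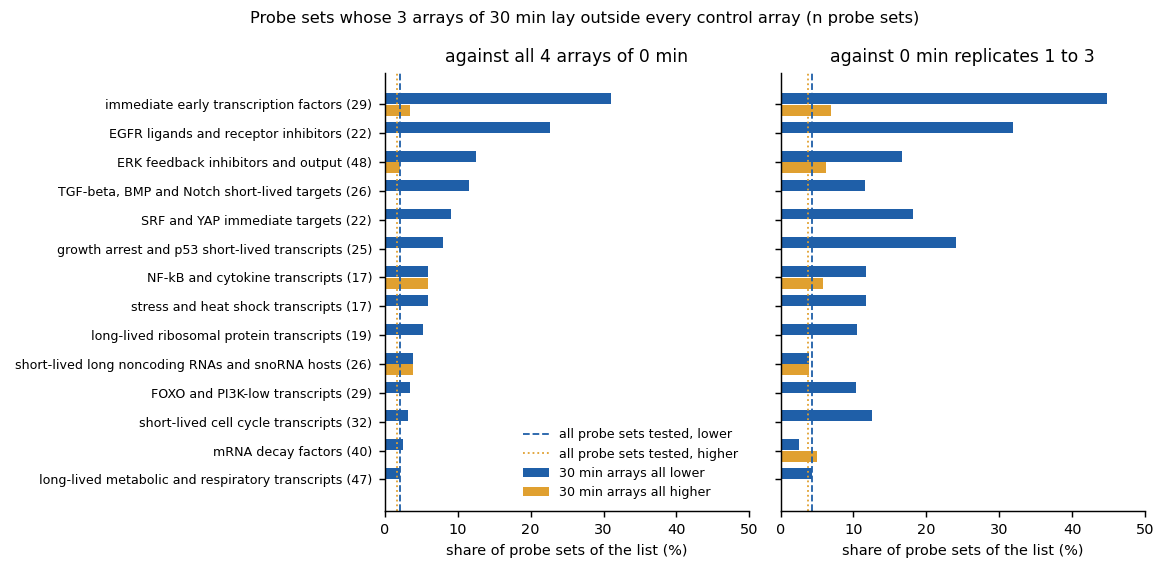
Share of the tested probe sets of each list (x axis, percent; number of probe sets in brackets) whose 3 arrays of 30 min lay below (blue bars) or above (yellow bars) every control, for 4 controls (left) and replicates 1 to 3 (right). Dashed and dotted lines are the shares over all probe sets tested, 2.03 and 1.62% on the left and 4.27 and 3.70% on the right; immediate early transcription factors have the longest bars, at 31.0 and 44.8%.

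Immediate early transcription factors, the nuclear proteins first made after a growth signal, had 9 of 29 probe sets below all 4 controls (31.0%), from 6 genes, and 13 below replicates 1 to 3 (44.8%). Over all probe sets tested, 2.03 and 4.27% lay below the controls. None of the 29 was called by limma, while 10 and 13 of them had an unadjusted p under 0.05 against 4 and 3 controls. Over all probe sets tested 4.18 and 5.69% had such a p. As the list was chosen with earlier results known, these counts are not tests. The median change of the list was -0.23 in both comparisons. EGR1, a zinc finger factor, read 12.01, 12.07, 11.85 and 13.10 at 0 min and 11.23, 11.41 and 11.73 at 30 min on probe set 227404_s_at. The later arrays were lower than every control, most of all than replicate 4, and the changes were -0.80 ± 0.25 against 4 and -0.52 ± 0.14 against 3 controls (limma adjusted p = 0.919 and 0.426). The second EGR1 probe set, 201694_s_at, ran alongside, with -0.95 and -0.59.

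JUN, a subunit of the AP-1 factor, had 4 tested probe sets, and 3 of them lay below every control. Probe set 213281_at read 9.13, 9.12, 8.93 and 9.72 at 0 min and 8.54, 8.57 and 8.64 at 30 min. Against replicates 1 to 3 all 4 JUN probe sets had changes between -0.48 and -0.36. Against all 4 controls probe set 201465_s_at differed by -0.02, since replicate 4 read 8.25 there while replicates 1 to 3 read 9.75, 10.05 and 9.54. JUNB, a related AP-1 subunit, read 9.85, 9.89, 10.02 and 10.17 and then 9.71, 9.53 and 9.57, without overlap, a difference of -0.38 and -0.32. BHLHE40, a transcriptional repressor linked to the circadian clock, read 8.78, 8.52, 8.33 and 9.46 and then 8.07, 8.21 and 8.10.

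Not every immediate early transcript was lower. IER2, another classical early gene, read 11.77, 11.77, 11.64 and 11.78 at 0 min and 11.64, 11.80 and 11.71 at 30 min, so the groups overlapped and differed by -0.02 ± 0.10. MYC, the growth regulator, read 7.77, 8.67 and 7.94 on replicates 1 to 3 and 7.75, 7.62 and 8.13 at 30 min, with overlap. Its difference of -1.06 ± 0.63 against 4 controls came with a value of 11.19 on replicate 4 and shrank to -0.29 ± 0.25 without that array. FOSB, singled out after its values were seen, was the only member of the list above all 4 controls (0.57 and 0.59 on probe set 202768_at, limma adjusted p = 0.919 and 0.589). KLF6, a zinc finger factor with 4 tested probe sets, differed by -0.56 to -0.23 against replicates 1 to 3.

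ERK feedback inhibitors and outputs had 6 of 48 probe sets below all 4 controls (12.5%, against 2.03% of all tested) and 1 above (2.1%, against 1.62%). The 6 belonged to DUSP6 (2), IER3, SPRY2, LIF and ETV4. DUSP6 encodes the phosphatase that inactivates ERK. Probe set 208891_at read 9.42, 9.32, 9.55 and 9.24 at 0 min and 8.85, 8.69 and 8.87 at 30 min, without overlap. Replicate 4 was the lowest control but lay near the others, and the changes of -0.58 ± 0.11 and -0.63 ± 0.11 were close (limma adjusted p = 0.354 and 0.104). The other DUSP6 probe sets had -0.62 and -0.53 against 4 controls.

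IER3, an early response protein that sustains ERK signalling and survival, was among the brightest and tightest. It read 12.81, 12.83, 12.72 and 12.87 and then 12.37, 12.32 and 12.38 on probe set 201631_s_at, a gap without overlap of -0.45 ± 0.08 and -0.43 ± 0.07 (limma adjusted p = 0.261 and 0.104). SPRY2, a feedback inhibitor upstream of RAS, read 8.95, 8.99, 9.27 and 9.78 and then 8.59, 8.38 and 8.41. LIF, an interleukin-6 family cytokine, read 8.93, 8.58, 8.79 and 9.93 and then 8.29, 7.92 and 7.74. Both were lower than every control, with differences of -0.79 and -1.07 against 4 and -0.61 and -0.78 against 3 controls, and neither was called (limma adjusted p of 0.629 and 0.709, and of 0.157 and 0.199). The 2 ETV4 probe sets outside the range of the controls lay on opposite sides, at -0.35 (1554576_a_at) and 0.26 (211603_s_at).

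EGFR ligands and inhibitors of receptor signalling had 5 of 22 probe sets below all 4 controls (22.7%, against 2.03% of all tested) and 0 above. HBEGF, a membrane-bound ligand of EGFR, read 7.44, 7.45, 7.51 and 6.98 at 0 min and 6.69, 6.27 and 6.82 at 30 min on probe set 203821_at, lower throughout with changes of -0.75 ± 0.19 and -0.87 ± 0.18 (limma adjusted p = 0.744 and 0.192). Replicate 4 was the lowest control here. It was also the lowest on the other tested HBEGF probe set, 38037_at, at 6.165, where the 30 min arrays read 6.173, 6.586 and 6.713. Those groups overlapped, with changes of -0.44 ± 0.24 against 4 and -0.69 ± 0.15 against 3 controls. SOCS3, an inhibitor of cytokine receptor signalling, had controls that lay close together. It read 10.42, 10.45, 10.41 and 10.43 and then 10.04, 9.77 and 9.84 on probe set 227697_at, a difference of -0.54 ± 0.09 in both comparisons (limma adjusted p = 0.191 and 0.0613). Without the pair of arrays it was called against the remaining replicates 1 and 2, at -0.63 (limma adjusted p = 0.0271). SOCS3 probe set 206359_at, near background, had -0.45 and -0.37. TGFA and BTC, other EGFR ligands, had no probe set outside the range of the controls.

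Further lists held fewer such members. Over all probe sets tested, 2.03% lay below all 4 controls and 4.27% below replicates 1 to 3. Targets of TGF-beta, BMP and Notch had 3 of 26 lower than all 4 controls (11.5%), among them ID1, an inhibitor of helix-loop-helix factors. ID1 read 5.59, 5.35, 5.23 and 6.79 and then 4.57, 4.74 and 4.88, a difference of -1.01 ± 0.30 and -0.66 ± 0.13 (limma adjusted p = 0.919 and 0.174). The other 2 were ID3 and SMAD7. Growth arrest and p53 transcripts had 2 of 25 (8%), PMAIP1 and PLK2, and 6 of 25 against replicates 1 to 3 (24.0%), where CDKN1A, the cell cycle inhibitor p21, had -0.44 on probe set 202284_s_at. In 4 other lists 1 gene lay below all 4 controls and none above. It was THBS1 among SRF and YAP targets (2 of 22 probe sets, 9.1%) and TRIB1 among transcripts of low PI3K signalling (1 of 29, 3.4%). It was DDIT4 among stress transcripts (1 of 17, 5.9%) and BUB1 among cell cycle transcripts (1 of 32, 3.1%). The shares in the lists of TRIB1 and BUB1 were near that of all probe sets tested. The other tested BUB1 probe sets overlapped the controls, with 0.08, -0.04 and 0.01 against all 4.

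Among mRNA decay factors only ZFP36 of 40 probe sets was below all 4 controls (2.50%, near the 2.03% of all probe sets tested). Its paralogs ZFP36L1 and ZFP36L2 read 11.92, 11.86, 12.06 and 12.31 and 12.27, 12.29, 12.36 and 12.66 at 0 min. At 30 min they read 11.89, 11.73 and 11.54 and 12.30, 12.18 and 12.17, and both overlapped the controls. Noncoding RNAs and hosts of small nucleolar RNAs had MIR205HG below and EPB41L4A-AS1 above all 4 controls among 26 probe sets. That is 3.8% each way, beside 2.03% lower and 1.62% higher of all probe sets tested. EPB41L4A-AS1 read 7.85, 7.50, 7.61 and 7.12 and then 8.01, 8.01 and 7.88, a difference of 0.45 ± 0.16 (limma adjusted p = 0.919). The list was named for short-lived RNAs but 12 of its probe sets measure MALAT1, known as a stable RNA.

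NF-kB and cytokine transcripts showed how much the choice of controls weighs. Their median was 0.21 against 4 controls and -0.05 against replicates 1 to 3. Of 17 probe sets, 1 lay below and 1 above all 4 (5.9% each, beside 2.03 and 1.62% of all tested). NFKBIA, the inhibitor of NF-kB, read 8.36, 8.58, 8.47 and 7.29 at 0 min and 8.46, 8.52 and 9.11 at 30 min on probe set 201502_s_at. The later arrays overlapped the first 3 controls, and replicate 4 alone stood low. The probe set above all 4 was the dim NFKBIA 231699_at, which read 4.15, 4.24, 4.30 and 3.53 and then 4.38, 4.31 and 4.46 (0.33 and 0.15, limma adjusted p = 0.919 and 1.00). NFKBIZ, a nuclear co-regulator of NF-kB, read 10.17, 10.14, 10.27 and 11.65 and then 9.97, 9.71 and 9.58 on probe set 223218_s_at, lower than every control.

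Across all genes, the probe sets with 1 symbol, a mean of at least 6 and no overlap were ranked by their difference from 4 controls. The 10 lowest ran from -2.33 (EREG) to -0.80 (NFKBIZ), and the 10 highest from 0.66 (NUP58) to 0.99 (GLIPR1). A mean of 6 was asked of the higher group only, so GLIPR1, RELN and SEC61B entered through 30 min, with 0 min means of 5.39, 5.20 and 5.55, and EREG, NAMPT, SPRY4-IT1, EIF2AK3-DT and VMP1 entered through 0 min, with 30 min means of 3.87 to 5.53. Replicate 4 was the lowest control in 9 of the 10 highest. GLIPR1, a gene induced by p53, read 5.72, 6.15, 6.23 and 3.44 and then 6.47, 6.32 and 6.33 on probe set 204222_s_at. There 0.99 against 4 became 0.34 against 3 controls. Its brighter probe sets 204221_x_at and 214085_x_at differed by -0.12 and -0.05 against 4 controls. AKAP13, an anchoring protein for protein kinase A, read 10.26, 10.33, 10.30 and 7.92 and then 10.55, 10.52 and 10.56 on probe set 208325_s_at, and 0.84 became 0.25. The other tested NUP58 probe sets differed by -0.31, -0.36 and -0.28 against 4 controls. All tested probe sets of AKAP13, CALD1, CP and HOMER3 were above 0 there, the lowest at 0.01, 0.125, 0.03 and 0.07. The difference moved less for SSBP1, a mitochondrial DNA-binding protein (214060_at, 0.90 and 0.89), and SEC61B, a subunit of the protein translocon (244700_at, 0.76 and 0.68). Their bright probe sets, SSBP1 202591_s_at at means of 12.70 and SEC61B 203133_at at 11.43 and 11.35, differed by -0.02 and -0.01 against replicates 1 to 3. SSBP1 214060_at read 7.32, 6.57, 7.03 and 6.92 and then 7.65, 7.66 and 8.28. None of the 10 was called by limma (adjusted p from 0.629 against 4 and from 0.363 against 3 controls). An unadjusted p under 0.05 was found for 7 and 8 of them, beside 4.18 and 5.69% of all probe sets tested. The 10 were picked by these same differences, so small unadjusted p-values follow from the choice and lend no support.

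Probe sets of the same gene did not always move together. A test added after the data were seen took each probe set relative to the mean of the gene's other tested probe sets, over 15505 probe sets of genes with more than 1. It called 2 probe sets against 4 controls (0.0129%) and 3 against replicates 1 to 3 (0.0193%). EREG gave both of the first, since its 2 probe sets mirror each other. Its bright probe set 205767_at read 11.06, 11.09, 11.16 and 11.95 at 0 min and 11.16, 11.07 and 10.98 at 30 min. That one overlapped the controls, while 1569583_at fell relative to it by 2.08 ± 0.20 and 1.92 ± 0.16 (limma adjusted p = 0.00124 and 2.12e-04), and by 1.86 without the pair of arrays (0.00462).

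The third was NAMPT, which encodes an enzyme of NAD synthesis and is also secreted. Its probe set 243296_at read 6.53, 6.33, 7.20 and 6.22 and then 5.50, 5.17 and 5.67, below every control, whereas its bright probe set 217739_s_at read 11.50, 11.50, 11.65 and 12.01 and then 11.67, 11.48 and 11.55. Relative to the 3 others, 243296_at fell by 1.37 ± 0.17 against replicates 1 to 3 (limma adjusted p = 0.00935), but the call was absent against 4 controls (0.971) and without the pair (0.0723).

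Other genes had a like contrast that the test did not call. THBS1 probe sets 215775_at and 239336_at had -1.21 and -1.05 against replicates 1 to 3, while its 5 other tested probe sets, 4 of them bright, lay between -0.17 and 0.07. MGP probe set 202291_s_at stayed at 12.33 to 12.37 after 12.35 to 12.46, beside the fall of 238481_at. In EREG, NAMPT, THBS1 and MGP the probe sets that were lower are dim ones, although the dim THBS1 probe set 201107_s_at differed by 0.01. The annotation used does not say where in a transcript a probe set lies, and what each dim probe set detects was not tested.

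**Figure D4:**
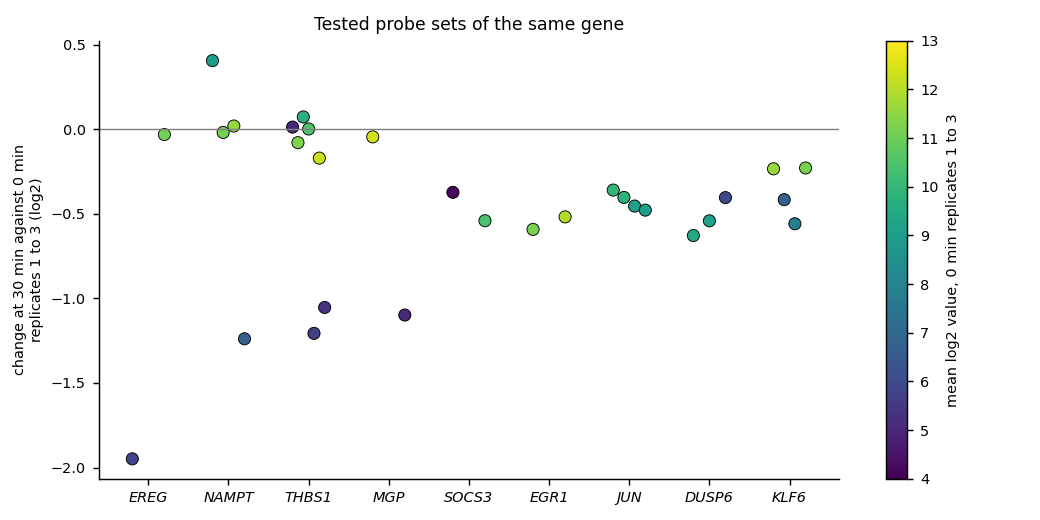
Change at 30 min against 0 min replicates 1 to 3 (log2, y axis) of each tested probe set of 9 genes (x axis), coloured by its mean log2 value in those controls. The dim probe sets of EREG (-1.95), NAMPT (-1.24), THBS1 (-1.21 and -1.05) and MGP (-1.10) lie well below the bright ones, another dim THBS1 probe set lies at 0.01, and the probe sets of JUN, EGR1 and DUSP6 lie together.

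The early differences were followed by different later levels, given here as means since all times share the 0 min arrays. Some transcripts were lower still. DUSP6 (208891_at) went from 8.80 at 30 min to 3.23 at 6 h and 3.35 at 24 h, SPRY4-IT1 (1566968_at) from 4.99 to 2.58 and 2.82, HBEGF (203821_at) from 6.59 to 4.57 and 3.65, and LIF from 7.98 to 6.39 and 5.65. SPRY4, which overlapped its controls at 30 min with a mean of 7.07, stood at 2.13 and 2.49. Others came back towards or above the level of replicates 1 to 3. ZFP36 went from 7.26 to 9.28 at 6 h and 8.69 at 24 h (control mean 8.36), 235419_at from 4.62 to 6.82 and 6.33 (6.51, a 24 h difference of -0.19), and MGP 238481_at from 3.91 to 6.08 and 5.44 (5.01). SOCS3 (227697_at) read 9.89, 10.47 and 10.75 in turn, and NFKBIZ (223218_s_at) 9.75, 12.19 and 11.74. MIR205HG, at 4.97, 5.50 and 5.70, came back near its control mean of 5.93. The choice of control matters here, since replicate 4 of 0 min resembled the 6 h arrays. Against replicate 4 alone, the 6 h mean differed by -0.22 for ZFP36, -0.73 for 235419_at and 0.01 for MGP 238481_at. For SOCS3, NFKBIZ and MIR205HG that difference was 0.05, 0.54 and -0.65. EREG 1569583_at, at 3.87, 4.68 and 3.71, stayed low.

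**Figure D5:**
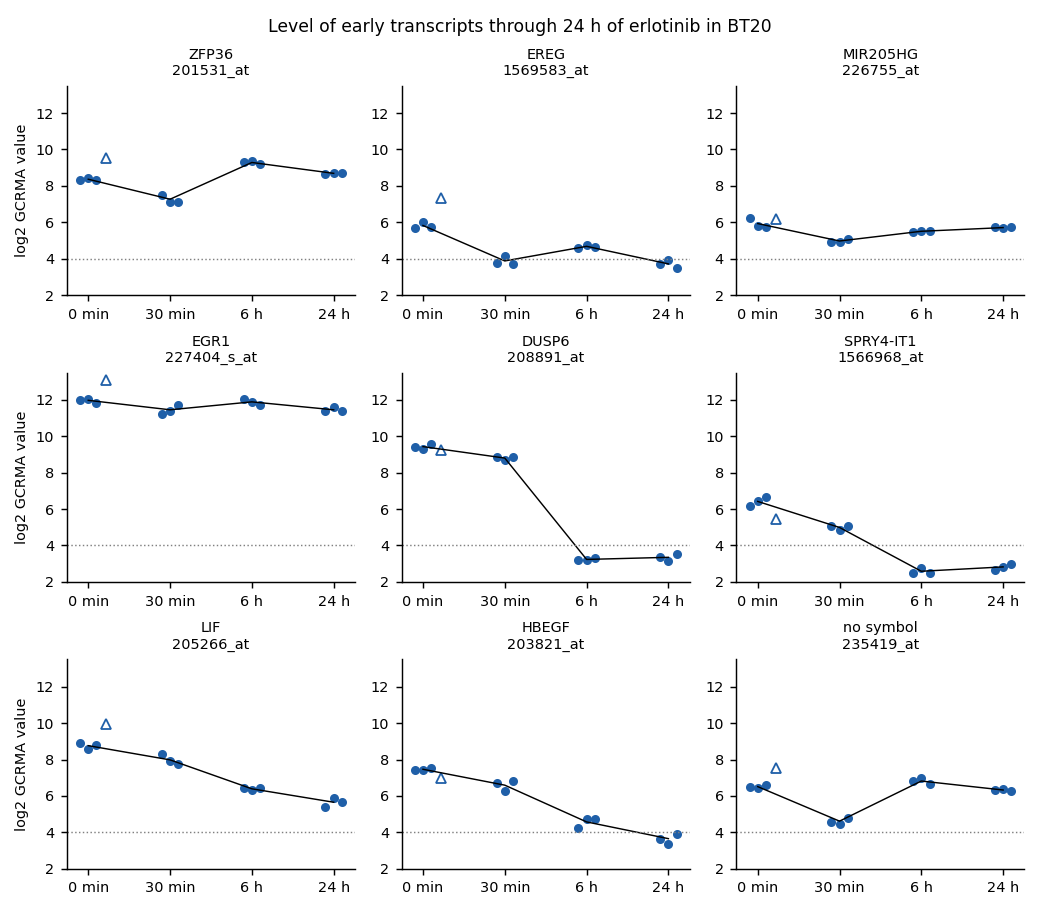
Log2 GCRMA value (y axis) of 9 probe sets at 0 min, 30 min, 6 h and 24 h of erlotinib in BT20 (x axis, spaced evenly and not to scale in time); points are replicates 1 to 3, the open triangle is replicate 4 of 0 min, the line joins the means of replicates 1 to 3, and the dotted line marks 4. DUSP6 and SPRY4-IT1 are below 4 at 6 h, while ZFP36 and 235419_at are back above their 30 min level.

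The promoters of the lower members were read for known sites. Of 27 genes of the 12 lists with a probe set below all 4 controls, 23 were in the RefSeq promoter table, with 31 windows. Each window searched was the 250 bases before an annotated start. CArG boxes were present in windows of EGR1 and RND3 (3 windows), against 1.16% of the 35116 windows in the table. The EGR site GCGTGGGCG was present in THBS1 (0.720% of all windows), and TGACGTCA, the CRE, in MAFF (1.65%). No window held TGACTCA, the AP-1 site (4.20%), or CCGGAAGT, an ETS site (3.42%). Both strands were searched, and a match describes letters in the window.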

How the data were processed

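Each deposited value is the log2 GCRMA level of a probe set on an Affymetrix array, made by the authors with GCRMA 2.20.0 in R 2.11.1, per the submitters' processing notes; the genome build is not given in the sources used here. GCRMA subtracts background by probe sequence so values near the floor depend on that estimate. No further normalization was applied, and the work was done in R 4.3.3. Gene symbols came from GEO's platform annotation, where 41091 of 54613 probe sets had exactly 1 symbol, 1801 several and 11721 none. Control probe sets were left out.

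limma 3.58.1 was fitted to the 13 BT20 arrays with 4 group means (9 residual degrees of freedom), and again with replicate 4 of 0 min given a mean of its own (5 means, 8 degrees of freedom). Both fits were tested on simulated data. The arrays compared, the members and the lists were chosen with earlier results of these data known. Named probe sets are all those called, the 10 largest falls and rises with 1 symbol, a mean of at least 6 and no overlap, up to 4 members of each list by smallest p, and 18 genes named in every case. Same-numbered replicates did not deviate together (correlations of -0.54, 0.31 and -0.44), so numbers were not used as pairs. For arrays, their number limits the precision. Sequences are RefSeq's on GRCh38.p14.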

Additional observations from a re-analysis of the deposited data

Results flagged for a closer look

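Among the 94 named probe sets, 22 had an array of 0 min far from the other 3. Its gap to the nearest was 0.833 to 0.973 of the group's range, above Dixon's critical value for a group of 4. Chance passes that value about 1 time in 20 where the values did not help to choose the group. Here the 0 min values helped to choose many of the probe sets, so that rate does not apply. The count was not made over all probe sets tested. Over all probe sets, replicate 4 correlated with replicates 1 to 3 at only 0.9827 to 0.9849. Replicate 4 was the outlying array in 19 of the 22, the highest in 10 and the lowest in 9. It was highest for 235419_at (7.55), ZFP36 (9.50), DDIT4 (8.86), CFAP418 (8.10), NFKBIZ 223218_s_at (11.65), SMAD7 (7.15), E2F8 (9.30), BUB1 (11.01), KLF9 203543_s_at (8.18) and CNOT7 225053_at (12.21). It was lowest for 1557285_at (4.00), HBEGF 203821_at (6.98), CP (5.20), HOMER3 (6.14), NUP58 (6.75), NFKBIA 201502_s_at (7.29), AKAP13 208325_s_at (7.92), UQCRC1 (8.49) and GBP2 (5.59). Replicate 2 was lowest for CHAC1 (3.71) and highest for TPM1 206116_s_at (11.28), and replicate 3 was lowest for IER2 (11.64).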

How the results depend on the processing

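Against 4 controls, the 3 calls became 1 with a floor of 6, 0 from the 7 arrays alone (432 at an unadjusted p under 0.05 by limma), 6 with all 25 arrays, 40 with array weights, 1 with 1 probe set a gene, and 0 without replicate 3 of 0 min and replicate 1 of 30 min (1553 unadjusted). The replicate number as a block, which is not a pairing here, gave 16. That block gives replicate 4 a term of its own, so the fit compares 30 min with replicates 1 to 3 and not with 4 controls. Leaving out each array in turn gave 0 to 14, the 14 without replicate 4 of 0 min and 0 without any array of 30 min (625 to 1615 unadjusted).
Against replicates 1 to 3, the 14 calls became 5, 3, 8, 41 and 3 under the same first 5 alternatives, 43 with a term for that pair of arrays, and 7 to 16 with an array left out; the block gave 16, of which 12 were shared.
The within-gene calls ranged from 2 to 4 against 4 controls and from 2 to 6 against 3 with an array left out, and were 13 against 3 with the term. The last alternatives with that pair, and the within-gene test, were chosen after seeing the data.
Of the named probe sets, small differences changed sign: MYH9 with array weights (-0.032 against 4 and -0.051 against 3 controls), without the pair (-0.073) and with an array left out (-0.050 to 0.060); JUN 201465_s_at against 4 controls with an array left out (-0.40 to 0.19) and without the pair (0.14); IER2 with an array left out (-0.063 to 0.017 against 4, -0.0515 to 0.030 against 3) and on repeated quantile normalization (7.05e-04); and against 3 controls with an array left out CCNG2 (-0.12 to 0.041), RPL7 239493_at (-0.24 to 0.023), RPL19 (-0.062 to 0.24) and SPRY4 (-0.34 to 0.018). The cause was not tested.
Quantile normalization or median centring gave 3 and 16 calls. Signals near 4 limit what dim probe sets can show.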
